A study of Rattus norvegicus with 12 samples.

Results

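A group of 18 genes had their highest RNA levels in every VAMP7KO library of NRK cells and had ATG5KO means between 0.5 and 2 times the WT mean. The group was selected on CPM, the count of a gene divided by the total of its library and multiplied by 1000000. A gene was taken when its mean over the 4 VAMP7KO libraries was at least 1 CPM, when its lowest VAMP7KO library exceeded 1.5 times the highest of the 8 other libraries, and when the ATG5KO mean over the WT mean, with 0.1 CPM added to each, lay between 0.5 and 2. Of the 20842 genes in the table, 11234 reached the level limit, 279 of these had every VAMP7KO library above every other library, 37 passed the 1.5 margin and 20 of them also lay in the ATG5KO band. Slc29a4 and Acta2 met every limit and were left out by name, as genes of families that the rule excludes, which gave the 18. Of these, 16 carry a gene symbol, 1 is listed as LOC108348233 and 1 has the identifier ENSRNOG00000065252 alone. All 18 passed the filter on low counts of the fitted model.

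VAMP7 is an R-SNARE of late endosomes and lysosomes, a membrane protein that drives fusion of these vesicles with the cell surface, and ATG5 is part of the machinery that attaches LC3 to the growing autophagosome membrane. Cells sense the stiffness of their surroundings and the tension of their actin cytoskeleton through the coactivators YAP and MRTF, which act with the DNA-binding factors TEAD and SRF on genes of the matrix and the cytoskeleton. Kidney cells in culture also secrete guidance cues, growth factors and matrix glycoproteins that other cells read through receptors at their surface.

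NRK is an established line from normal rat kidney, which the labels give as epithelial and the study also calls fibroblastic. The WT libraries came from the unedited line, the VAMP7KO libraries from NRK cells cut in Vamp7 with Cas9, and the ATG5KO libraries from NRK cells cut in Atg5 in the same way. Each genotype gave 4 libraries, numbered 1 to 4, from cells in complete medium with no treatment, and each knockout line was grown from 1 sorted cell, so the effect of the genotype and of the clone cannot be told apart. In these bulk samples, fewer cells of a type and less RNA per cell cannot be told apart either.

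Between 21090858 and 31525111 reads were counted per library, and the floor, set at 3 counts of a gene in a library, stood for 0.0952 to 0.142 CPM. Vamp7 itself averaged 112.3 ± 4.70 CPM in WT (SD, n = 4), 45.1 ± 5.42 in VAMP7KO and 129.9 ± 1.74 in ATG5KO, so its RNA was lower but present in all 4 VAMP7KO libraries. Atg5 was not analysed here. Replicates 3 and 4 stood apart from replicates 1 and 2 in every genotype, a split seen in these data and not given by the labels. They are called set B (replicates 3 and 4) and set A (replicates 1 and 2) here, and values of the 18 genes are given for both. Symbols could be assigned to 1976 genes, those the study had listed as changed.

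**Figure D1:**
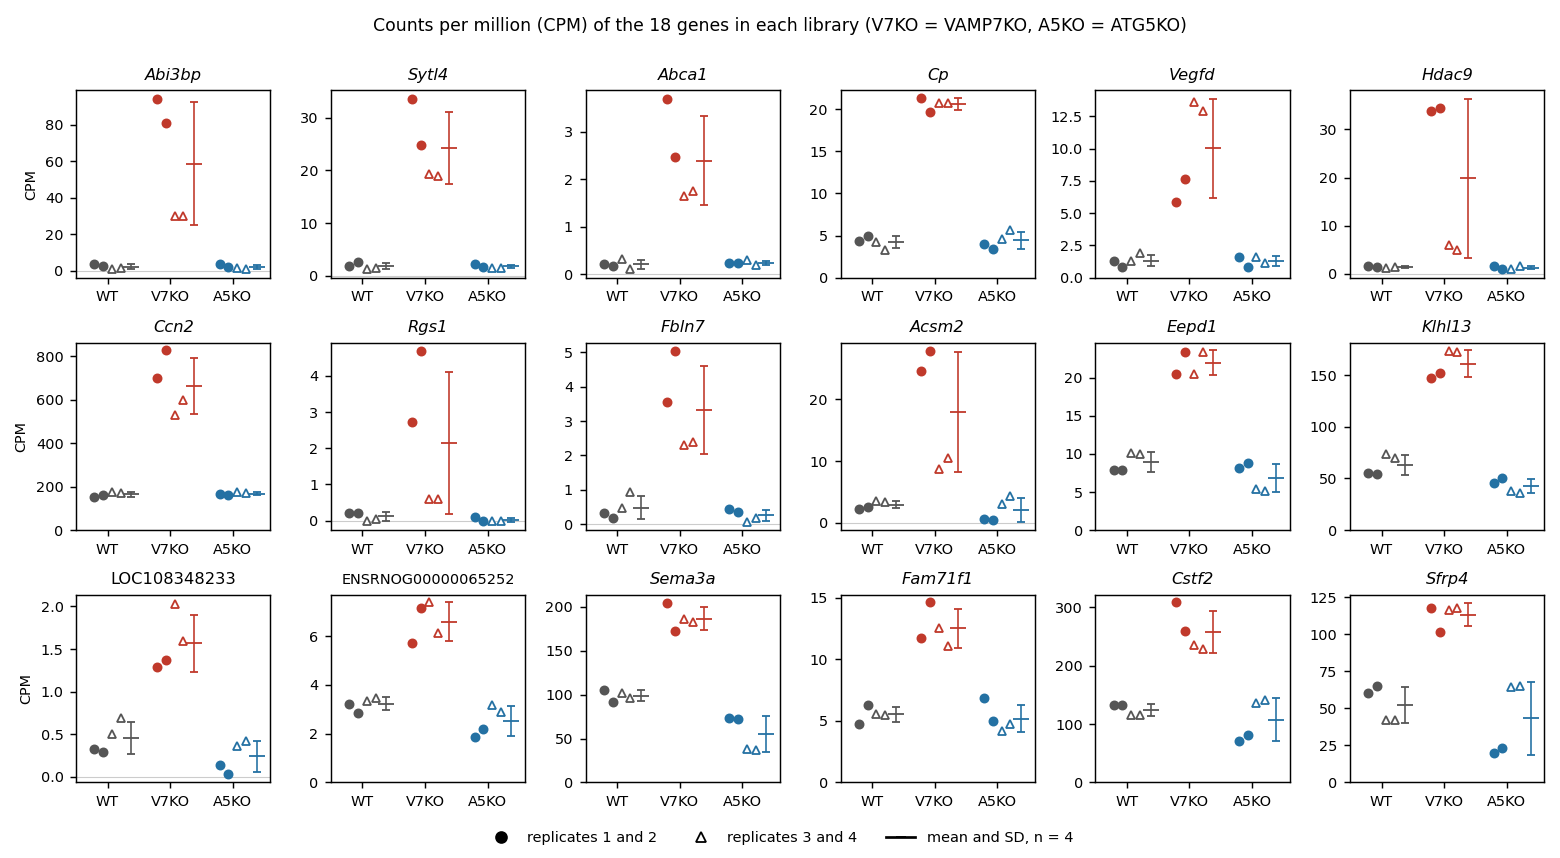
Level in CPM (linear axes) of each of the 18 genes in the 12 libraries, 4 per genotype, filled circles for replicates 1 and 2 and open triangles for replicates 3 and 4, with the mean and SD beside them. In every panel the lowest VAMP7KO library lies above the highest WT or ATG5KO library, as the selection required, while the VAMP7KO libraries of Hdac9 fall into a pair near 34 and a pair near 5 CPM.

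Matrix genes held the largest difference. Abi3bp, which encodes a secreted matrix protein, measured 3.66, 2.85, 1.24 and 1.53 CPM in WT replicates 1 to 4, 94.1, 80.8, 29.9 and 29.9 in VAMP7KO, and 3.56, 2.31, 1.27 and 1.03 in ATG5KO. The WT and ATG5KO libraries overlapped throughout, and VAMP7KO exceeded them in all 4 replicates. Its mean was 25.3-fold that of WT, the highest of the 18, and 28.8-fold that of ATG5KO. All 3 genotypes had more Abi3bp in set A than in set B, and the fold over WT was 26.9 in set A and 21.6 in set B.

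Ccn2, a matricellular protein and a standard target of YAP and TEAD, measured 151.3, 159.7, 176.4 and 171.3 CPM in WT, 698.5, 827.2, 526.9 and 596.2 in VAMP7KO, and 165.5, 161.4, 173.4 and 170.9 in ATG5KO. WT and ATG5KO were nearly equal, at 164.7 ± 11.3 and 167.8 ± 5.40 CPM (SD, n = 4), against 662.2 ± 130.6 in VAMP7KO. The fold over WT was 4.91 in set A and 3.23 in set B.

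Fbln7, a fibulin of the extracellular matrix, was close to the floor outside VAMP7KO. It measured 0.323, 0.181, 0.476 and 0.938 CPM in WT, 3.56, 5.03, 2.31 and 2.39 in VAMP7KO, and 0.427, 0.349, 0.0728 and 0.187 in ATG5KO, where 1 library was at or under 3 counts. The VAMP7KO mean was 6.94-fold the WT mean.

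The promoters of these 3 matrix genes were the only ones among 14 promoters of the group that held GGAATG, the core letters read by TEAD. They are shown because Ccn2 is the YAP and TEAD target of the group. The sequences are those of RefSeq for GRCr8, a later build than the mRatBN7.2 used for the counts, and run 5′ to 3′ on the strand of the gene from 250 bases before to 50 bases after the start: chr1:22624565-22624864 on the minus strand for Ccn2, chr11:57597940-57598239 on the minus strand for Abi3bp and chr3:136564575-136564874 on the plus strand for Fbln7. Capitals mark GGAATG on either strand (CATTCC where it lies on the other strand) and TATAAA.
Ccn2: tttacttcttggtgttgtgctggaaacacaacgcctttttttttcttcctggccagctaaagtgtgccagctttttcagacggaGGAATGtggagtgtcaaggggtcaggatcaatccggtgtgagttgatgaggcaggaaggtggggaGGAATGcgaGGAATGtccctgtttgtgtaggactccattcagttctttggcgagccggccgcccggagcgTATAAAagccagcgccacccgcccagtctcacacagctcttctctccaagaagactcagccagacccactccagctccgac
Abi3bp: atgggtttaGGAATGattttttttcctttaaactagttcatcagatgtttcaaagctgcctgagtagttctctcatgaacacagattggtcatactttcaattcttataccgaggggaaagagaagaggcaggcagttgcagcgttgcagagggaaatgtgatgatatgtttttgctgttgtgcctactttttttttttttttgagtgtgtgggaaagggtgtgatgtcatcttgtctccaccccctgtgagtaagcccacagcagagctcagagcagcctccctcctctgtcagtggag
Fbln7: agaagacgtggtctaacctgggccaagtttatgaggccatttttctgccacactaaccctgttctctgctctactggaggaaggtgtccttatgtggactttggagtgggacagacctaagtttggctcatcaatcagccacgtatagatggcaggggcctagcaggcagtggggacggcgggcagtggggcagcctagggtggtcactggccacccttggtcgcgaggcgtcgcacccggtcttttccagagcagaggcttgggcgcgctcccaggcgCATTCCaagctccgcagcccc
Counted from 1 at the left end, GGAATG began at 85, 150 and 159 in Ccn2 and at 10 in Abi3bp, and its reverse complement began at 280 in Fbln7. GGAATG was found in 13.9% of 27457 rat promoters of the same length, so 3 of 14 is a description of these sequences and not a count of binding sites. TATAAA, the letters of a TATA box, stood in the promoters of 5 of the 14 (Abca1, Cp, Vegfd, Ccn2 and Rgs1) against 14.3% of all promoters. GGGCGG stood in 3 (Abca1, Ccn2 and Cstf2) against 34.9%. The CArG box of SRF (1.64% of all promoters), TGANTCA of AP-1 (7.33%) and TGACGTCA of CREB (1.91%) were in none of the 14. Both strands were searched for each motif, and overlapping matches were allowed.

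Of the secreted ligands, Vegfd encodes a vascular endothelial growth factor that acts on lymphatic vessels through the receptor Flt4. Vegfd measured 1.29, 0.831, 1.33 and 1.88 CPM in WT, 5.87, 7.68, 13.6 and 12.9 in VAMP7KO, and 1.61, 0.838, 1.60 and 1.12 in ATG5KO. Both set B libraries of VAMP7KO were above both set A libraries, opposite to Abi3bp and Ccn2, and its mean was 7.53-fold that of WT and 7.76-fold that of ATG5KO.

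Sema3a, a secreted semaphorin that repels axons through neuropilins and plexins, had the smallest fold over WT of the 18. It measured 105.6, 91.6, 102.1 and 96.1 CPM in WT, 205.0, 173.2, 186.8 and 182.4 in VAMP7KO, and 73.0, 72.4, 38 and 37.1 in ATG5KO. The 3 genotypes did not overlap, with ATG5KO lowest in every replicate. VAMP7KO was 1.89-fold WT and 3.39-fold ATG5KO, and the ATG5KO to WT ratio of 0.558 was the lowest in the group, near the 0.5 limit.

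Next to Sema3a in the rat genome lies Sema3d, another secreted semaphorin, which passed the margin but was below the ATG5KO band. Sema3d measured 55.6, 49.4, 63.0 and 61.4 CPM in WT, 363.5, 322.6, 379.7 and 380.0 in VAMP7KO, and 19.3, 21.6, 18.9 and 22.5 in ATG5KO. It thus had the same order of genotypes as Sema3a with wider gaps. Its log2 difference of VAMP7KO from WT was 2.71 (SE 0.0962) and from ATG5KO 4.18 (SE 0.104).

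Sfrp4, a secreted antagonist of Wnt ligands, sat nearest to the margin. It measured 60.2, 64.7, 41.9 and 42.2 CPM in WT, 117.9, 101.4, 116.1 and 117.4 in VAMP7KO, and 20.1, 23.2, 64.2 and 65.1 in ATG5KO. VAMP7KO was even across replicates, whereas WT was higher in set A and ATG5KO in set B, so the order of WT and ATG5KO turned between the sets.

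Sytl4, or granuphilin, binds Rab27 and docks secretory granules at the plasma membrane, and it was the member of the group closest in role to VAMP7. It measured 1.90, 2.64, 1.30 and 1.49 CPM in WT, 33.5, 24.9, 19.4 and 19.0 in VAMP7KO, and 2.28, 1.75, 1.49 and 1.5 in ATG5KO. The lowest VAMP7KO library was 7.2 times the highest other library, the second largest margin after the 8.17 of Abi3bp. The fold over WT was 12.9 in set A and 13.7 in set B. Fam71f1, which RefSeq lists as Garin1b and which encodes a Golgi-associated partner of Rab2, measured 5.53 ± 0.636 CPM in WT (SD, n = 4), 12.5 ± 1.58 in VAMP7KO and 5.20 ± 1.14 in ATG5KO.

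Cstf2, a subunit of the factor that cleaves pre-mRNA before polyadenylation, is the neighbour of Sytl4 on chromosome X. It measured 131.9, 132.9, 115.5 and 115.9 CPM in WT, 309.0, 259.0, 235.7 and 229.1 in VAMP7KO, and 70.7, 82.0, 136.0 and 142.1 in ATG5KO. The VAMP7KO libraries were above all others, and ATG5KO was below WT in set A and above it in set B. Its fold over WT of 2.08 was far below the 13.2 of Sytl4. Chromosome X carried 4 of the 16 members matched to RefSeq (Sytl4, Cstf2, Vegfd and Klhl13), against 4.04% of RefSeq protein-coding genes and 2.7% of the 1813 named genes of the table that could be matched. A change of copy number in the sorted clone was not tested.

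The lipid and metabolism genes differed in how evenly they were raised. Abca1, the transporter that moves cholesterol to apolipoprotein A-I, measured 0.215, 0.181, 0.317 and 0.104 CPM in WT, 3.69, 2.47, 1.65 and 1.75 in VAMP7KO, and 0.237, 0.244, 0.291 and 0.187 in ATG5KO. Its VAMP7KO mean was 11.7-fold WT, on WT levels that reached the floor in 1 library. Eepd1, which acts in the restart of stalled replication forks and has been tied to cholesterol efflux, measured 7.85, 7.84, 10.2 and 9.93 CPM in WT, 20.5, 23.4, 20.5 and 23.5 in VAMP7KO, and 8.16, 8.77, 5.35 and 5.09 in ATG5KO. VAMP7KO was level over the 4 replicates, and ATG5KO was above WT in set A and below it in set B.

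Cp encodes ceruloplasmin, a copper-binding ferroxidase that is secreted into plasma. It measured 4.41, 4.91, 4.28 and 3.33 CPM in WT, 21.3, 19.7, 20.7 and 20.7 in VAMP7KO, and 4.03, 3.39, 4.58 and 5.65 in ATG5KO. Cp was the steadiest of the 18 in VAMP7KO, with a coefficient of variation (CV, the SD as a percentage of the mean) of 3.27%, and its fold over WT was 4.87.

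Acsm2 encodes a mitochondrial enzyme that activates medium-chain fatty acids and is typical of kidney tubule and liver. It measured 2.29, 2.64, 3.49 and 3.33 CPM in WT, 24.6, 27.7, 8.76 and 10.5 in VAMP7KO, and 0.569, 0.524, 2.98 and 4.30 in ATG5KO. VAMP7KO was lower and ATG5KO higher in set B, and the fold over ATG5KO was 47.9 in set A and 2.65 in set B. The related gene Acsm5 lies beside it, and reads shared with a close copy may have been dropped in counting, which was not tested.

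Hdac9, a class IIa histone deacetylase that represses MEF2 factors, differed strongly between the sets in VAMP7KO. It measured 1.65, 1.34, 1.21 and 1.39 CPM in WT, 33.8, 34.5, 5.92 and 4.98 in VAMP7KO, and 1.57, 0.908, 1.02 and 1.5 in ATG5KO. WT and ATG5KO overlapped and were level. The fold over WT was 22.9 in set A and 4.2 in set B.

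Twist1, a transcription factor of mesenchymal cells, is the neighbour of Hdac9. It measured 68.2, 77.2, 59.5 and 59.0 CPM in WT, 118.4, 140.8, 72.2 and 76.4 in VAMP7KO, and 78.3, 80.5, 61.2 and 62.4 in ATG5KO. Its set B libraries of VAMP7KO overlapped the set A libraries of WT and ATG5KO, so it missed the margin, and its log2 difference from WT was 0.63 (SE 0.114). Sema3d and Twist1 were the only neighbours outside the 18 whose identifiers could be named.

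Rgs1, which speeds the shut-off of G protein signals and is best known from lymphocytes, was at or near the floor outside VAMP7KO. It measured 0.215, 0.217, 0 and 0.0347 CPM in WT, 2.74, 4.68, 0.596 and 0.597 in VAMP7KO, and 0.0948, 0, 0 and 0 in ATG5KO. All 4 ATG5KO libraries and 2 of the WT libraries were at or under 3 counts. VAMP7KO was therefore at least 17.3-fold higher than ATG5KO, taking the floor of each library, and Rgs1 lay in the ATG5KO band only through the 0.1 CPM added to both means. Klhl13, a substrate adaptor of a cullin ubiquitin ligase, measured 55.4, 54.1, 73.2 and 69.4 CPM in WT, 147.3, 152.3, 172.9 and 172.0 in VAMP7KO, and 45.5, 50.4, 38 and 35.6 in ATG5KO. The 3 genotypes did not overlap, and VAMP7KO was 2.56-fold WT and 3.80-fold ATG5KO.

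LOC108348233 measured 0.454 ± 0.187 CPM in WT (SD, n = 4), 1.57 ± 0.334 in VAMP7KO and 0.240 ± 0.182 in ATG5KO, where 2 libraries were at or under 3 counts. ENSRNOG00000065252 measured 3.22 ± 0.265, 6.6 ± 0.807 and 2.53 ± 0.608 CPM in the same order.

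**Figure D2:**
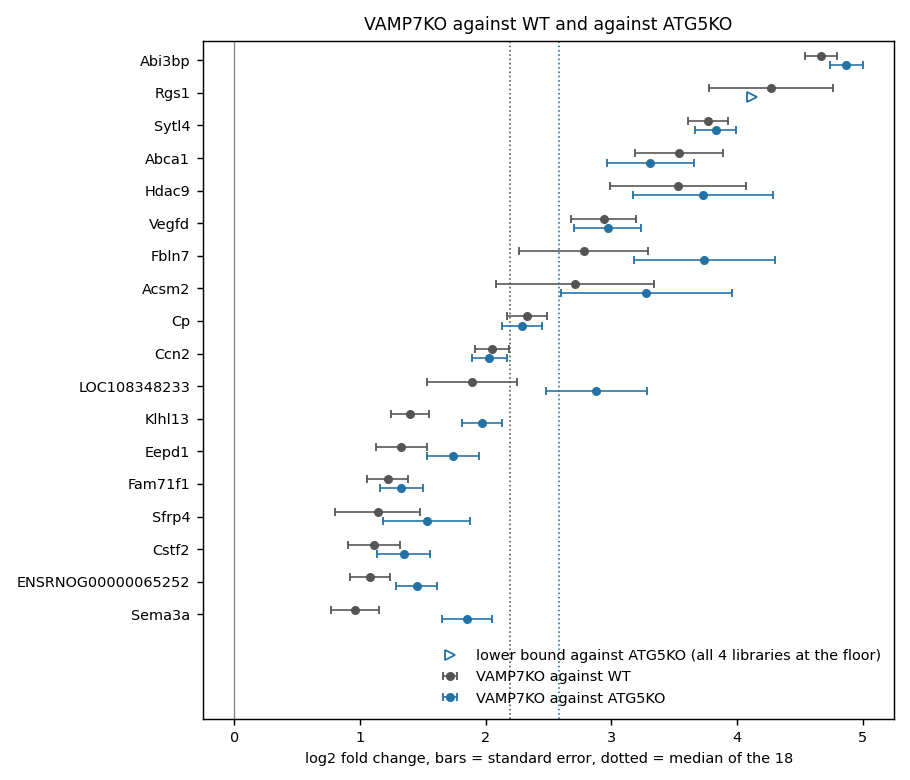
Fitted log2 fold change of each of the 18 genes in VAMP7KO against WT (grey) and against ATG5KO (blue), with standard errors, ordered by the WT comparison, and the open triangle is the lower bound of Rgs1. Values run from 0.96 for Sema3a to 4.67 for Abi3bp against WT, and the dotted medians lie at 2.19 and 2.58.

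Across the 18 genes the fitted log2 fold change over WT had a median of 2.19 and ran from 0.96 to 4.67, and that over ATG5KO had a median of 2.58, which stayed 2.58 with Rgs1 at its bound. These values describe the selection and carry no test, since the selection used both contrasts. In CPM, 10 members were at least 4-fold above WT and 8 were below 4-fold. The highest library outside VAMP7KO was a WT library for 13 members and an ATG5KO library for 5. Nearest the margin, from inside, were ENSRNOG00000065252 at 1.64, Sema3a at 1.64, Fam71f1 at 1.62, Cstf2 at 1.61 and Sfrp4 at 1.56. The named genes just outside were Fam171a1 at 1.49, Tnfrsf1b at 1.48, Rab3il1 at 1.47, Zc2hc1a at 1.46 and Sema7a at 1.44, among 222 genes that met every other limit with a margin between 1 and 1.5. A library scale by TMM in place of the totals gave 27 genes, with all 18 among them. Leaving out WT replicate 3 removed Rgs1, leaving out ATG5KO replicate 1 removed Rgs1 and Sema3a, leaving out ATG5KO replicate 2 removed Sema3a and leaving out ATG5KO replicate 4 removed Acsm2, while the other 8 omissions kept all 18.

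The spread of the 18 genes over the VAMP7KO libraries differed widely, with CVs from 3.27% to 91.2% and a median of 20.5%. Cp, Eepd1, Klhl13, Sema3a and Sfrp4 were under 10%, and Abi3bp, Hdac9, Rgs1 and Acsm2 were over 50%. The selection did not use the difference of set B from set A, although its margin limits how low a VAMP7KO library can go. This difference was tested within genotypes by the quasi-likelihood test of edgeR, with Benjamini-Hochberg adjusted p-values over 13141 genes. The sets were themselves recognised in these data, so this and the later tests between sets are not independent of that. Their p-values measure the spread between libraries within a set, not whether a set difference would recur. In VAMP7KO, 2 of the 18 were higher in set B (Vegfd and Klhl13), against 27.8% of all genes tested, and 9 were lower, against 28.3%. Those lower in set B were Abi3bp, Sytl4, Abca1, Hdac9, Ccn2, Rgs1, Fbln7, Acsm2 and Cstf2. The median log2 difference was -0.20 for the members and -0.01 for all genes.

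The log2 difference of set B from set A in VAMP7KO was -2.62 for Hdac9 (SE 0.159, Benjamini-Hochberg adjusted p = 3.03e-10 in edgeR), lower in both libraries of set B than in either of set A, and -2.60 for Rgs1 (SE 0.412, adjusted p = 4.91e-05 in edgeR), on 15 to 106 counts a library. It was -1.53 for Abi3bp (SE 0.119, adjusted p = 7.06e-09 in edgeR) and -1.42 for Acsm2 (SE 0.148, adjusted p = 2.74e-07 in edgeR), and 1.0 for Vegfd (SE 0.209, adjusted p = 0.000567 in edgeR), in each case with no overlap of the sets. The calls of Klhl13, Fbln7, Abca1 and Cstf2 were lost without VAMP7KO replicate 4, which left 7 called members of 11. Klhl13 and Abca1 were also lost without VAMP7KO replicate 1 or 3, Cstf2 without replicate 1, and Fbln7 without replicate 2 or 3. The DESeq2 Wald test did not call Fbln7 and Abca1.

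In WT and ATG5KO, taken as the mean of both, 6 members were higher in set B (Ccn2, LOC108348233, Acsm2, Cstf2, Sfrp4 and ENSRNOG00000065252), against 31.6% of all genes in the edgeR test, and 3 were lower (Abi3bp, Sytl4 and Sema3a), against 33.8%. Rgs1 also passed, but it had 0 to 6 counts in these 8 libraries, with 6 of them at or under 3, so nothing is read from its call. The mean hides opposite signs in the 2 genotypes for 9 of the 18, among them Sfrp4 with a log2 difference of -0.45 in WT and 1.57 in ATG5KO. Sytl4 lost its call without WT replicate 2 or 3 or ATG5KO replicate 1, 3 or 4, Ccn2 without WT replicate 3, and ENSRNOG00000065252 without WT replicate 2 or ATG5KO replicate 1 or 3. The number called, Rgs1 included, ran from 7 to 10 as each library was left out.

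**Figure D3:**
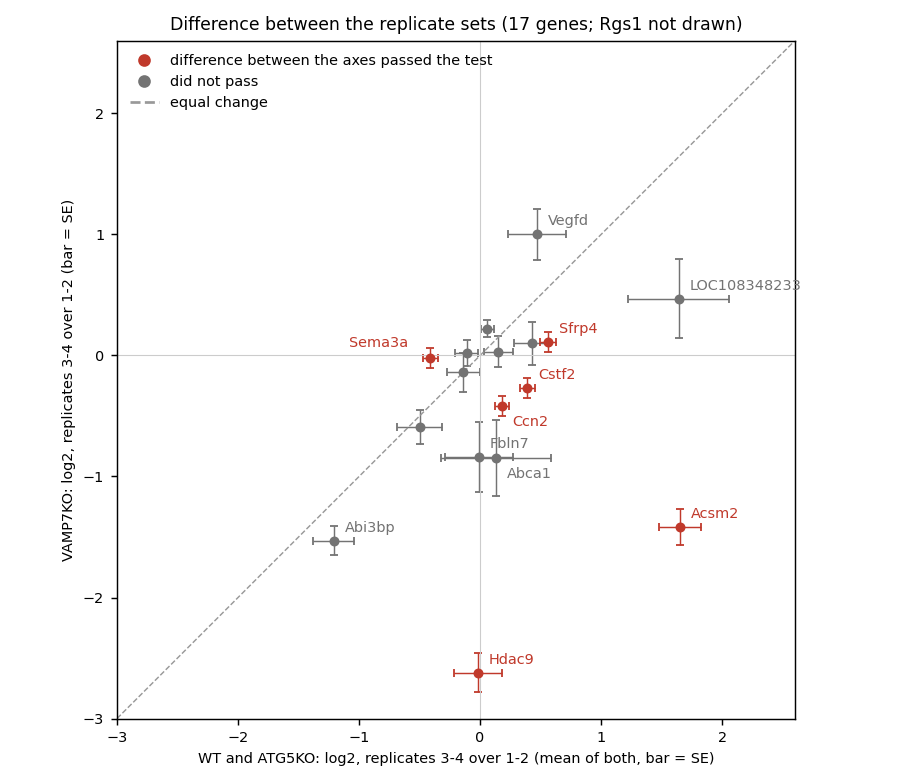
Log2 difference of set B (replicates 3 and 4) from set A (replicates 1 and 2) in VAMP7KO (vertical) against the mean of that difference in WT and ATG5KO (horizontal), with standard errors, for 17 genes, and a dashed line of equal change. Abi3bp lies near the line at -1.21 and -1.53, and Hdac9 (-0.02 and -2.62) and Acsm2 (1.65 and -1.42) lie far below it.

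The set difference in VAMP7KO departed from the mean of those in WT and ATG5KO for 6 of the 18, by the interaction in the same edgeR test. It was more positive than this mean for 1 (Sema3a), against 5.80% of all genes, and more negative for 5 (Hdac9, Ccn2, Acsm2, Cstf2 and Sfrp4), against 4.82%. VAMP7KO lay below both other genotypes for Hdac9, Ccn2, Acsm2 and Cstf2, although for Cstf2 WT was near it (log2 set differences of -0.27 in VAMP7KO, -0.08 in WT and 0.86 in ATG5KO). For Sema3a (-0.02, 0.13 and -0.95 in the same order) and Sfrp4 (0.11, -0.45 and 1.57) VAMP7KO lay between the other genotypes, so the direction given holds against ATG5KO and is the opposite of that against WT. VAMP7KO was not tested against each genotype alone. The largest were Acsm2 at -3.07 (SE 0.229, adjusted p = 7.34e-08 in edgeR) and Hdac9 at -2.60 (SE 0.256, adjusted p = 2.38e-06). Cstf2 differed by -0.66 (SE 0.102), Ccn2 by -0.60 (SE 0.103), Sfrp4 by -0.45 (SE 0.104) and Sema3a by 0.40 (SE 0.0997, adjusted p = 0.015 by edgeR). Sema3a lost its call without VAMP7KO replicate 2, 3 or 4 or ATG5KO replicate 4 (adjusted p of 0.0531 to 0.0806 in edgeR), and the other 5 kept theirs in every fit run. Abi3bp, lower in set B in all genotypes, had an interaction of -0.32 (SE 0.211, adjusted p = 0.396 in edgeR), and Sytl4 one of -0.10 (SE 0.236, adjusted p = 0.872 in edgeR). The fold over WT was larger in set A for 13 members and in set B for 5, with medians of 4.65 and 3.12. What the replicate numbers stand for is not given in the sources used here, and its part in these differences was not tested.

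The ATG5KO level of the 18 was below WT for 15 and above it for 3 (Abca1, Cp and Ccn2), with ratios from 0.558 (Sema3a) to 1.12 (Abca1) and a median of 0.847. The selection used this ratio and no share over all genes was taken, so these counts describe the selection only. Of the genes that passed the margin but left the band, 13 had ATG5KO below it and 4 above it. Within set A alone, 4 members left the 0.5 to 2 band (Acsm2, Sfrp4, Rgs1 and LOC108348233), and within set B alone 2 did (Fbln7 and Sema3a), so 12 were within it in both. The difference of the ATG5KO to WT ratio between the sets was tested after the members' values had been seen. It was higher in set B for 3 (Acsm2, Cstf2 and Sfrp4), against 14.4% of all genes in the edgeR test, and lower for 4 (Fbln7, Eepd1, Klhl13 and Sema3a), against 14.5%. On the log2 scale the change was 2.13 (SE 0.361) for Acsm2, 2.02 (SE 0.126) for Sfrp4, 0.94 (SE 0.120) for Cstf2, -3.17 (SE 0.864) for Fbln7, -1.17 (SE 0.188) for Eepd1, -1.08 (SE 0.119) for Sema3a and -0.88 (SE 0.108) for Klhl13. Fbln7 lost this call without WT replicate 4 or ATG5KO replicate 3, and it rests on ATG5KO libraries close to the floor.

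**Figure D4:**
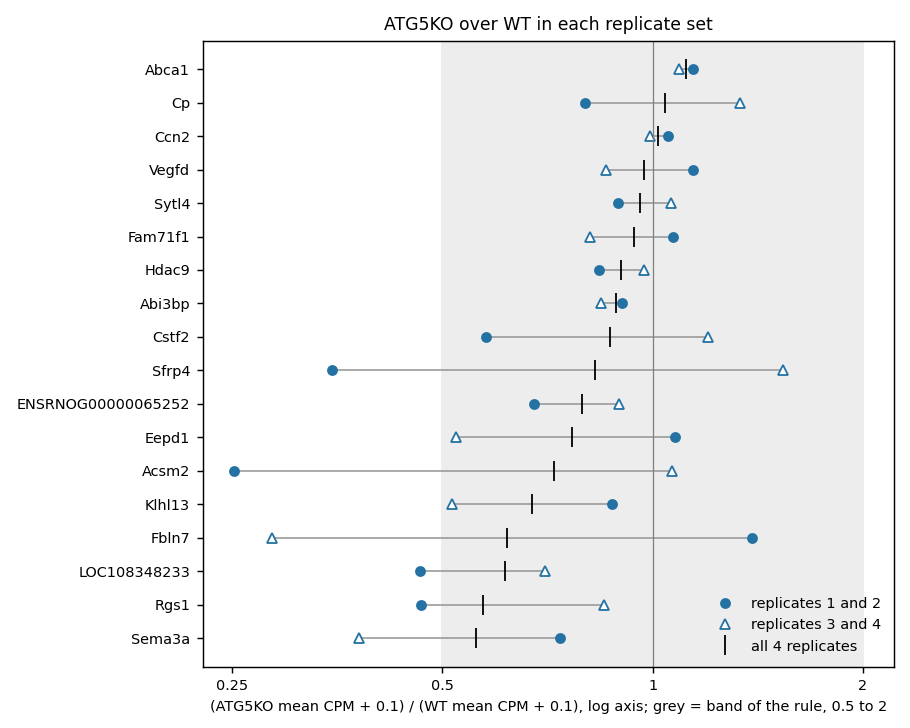
Ratio of the ATG5KO mean to the WT mean, each with 0.1 CPM added, for the 18 genes in replicates 1 and 2 (filled), replicates 3 and 4 (open) and all 4 (bar), on a log axis with the 0.5 to 2 band in grey. Sfrp4 moves from 0.348 to 1.54 and Acsm2 from 0.252 to 1.06, whereas Ccn2 stays between 0.990 and 1.05.

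Of the 18, 12 belonged to one of 14 functional lists and 6 to none (Eepd1, Klhl13, Fam71f1, Cstf2, LOC108348233 and ENSRNOG00000065252). The other genes of these lists were nameable only because the study had listed them as changed in these same data. A high share of calls was thus built in, and neither that share nor its direction is independent evidence. The shares of all genes given beside them include unnamed genes and are not a like background. Of 173 such genes tested outside the 18, 103 rose and 40 fell in VAMP7KO against WT by the edgeR test, where 10.5% of all genes were higher and 12.3% lower. Without the replicate number in the model 94 were called in place of 143. Against ATG5KO, which shares the VAMP7KO libraries with this comparison, 88 rose and 56 fell, where 21.3% of all genes were higher and 23.6% lower. The median log2 difference was 0.69 against WT and 0.56 against ATG5KO, and for all genes 0.00 and -0.01.

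Of 23 listed YAP and TEAD targets only 5 could be named, Ccn2 among them, and the 4 others all rose against WT. Ankrd1, a muscle and stress protein, averaged 5.26 ± 1.97 CPM in WT (SD, n = 4), 34.7 ± 7.96 in VAMP7KO and 13.2 in ATG5KO. Ccn1, the closest relative of Ccn2 among them, averaged 373.7 ± 159.4, 777.9 ± 177.5 and 317.2 CPM. Against ATG5KO these 2 rose, while Tgfb2 and F3 had log2 differences of -0.36 and -0.32 that did not pass the test. Of 31 listed SRF and MRTF targets and actin linkers 14 could be named. Of these, 13 rose against WT and none fell, and against ATG5KO 10 rose and 2 fell. Tpm4, a tropomyosin of stress fibres, was 1041 ± 105.9 CPM in WT and 1693 ± 343.4 in VAMP7KO, and Phldb2, a cortical linker, was 119.9 ± 14.3 and 205.9 ± 11 CPM.

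Around Sema3a, 5 guidance ligands and receptors rose against WT and 8 fell of 16 tested. Nrp1, the neuropilin through which Sema3a acts, averaged 0.623 ± 0.230 CPM in WT, 6.46 ± 1.87 in VAMP7KO and 15.1 in ATG5KO. It was highest where Sema3a was lowest, but lowest in WT, where Sema3a lay between the other genotypes. Robo1, a Slit receptor, fell from 15.6 ± 8.68 CPM in WT to 0.333 ± 0.122 in VAMP7KO. It was at or under 3 counts in all 4 ATG5KO libraries. Around Vegfd, the related ligand Vegfc rose from 11.4 ± 1.08 CPM in WT to 19.4 ± 2.03 in VAMP7KO. The receptor Flt1 fell from 9.67 ± 0.510 CPM in WT to 2.7 ± 0.835 in VAMP7KO, but was lower still in ATG5KO. Against ATG5KO, Vegfc and Flt1 were both called higher in VAMP7KO, with log2 differences of 0.74 (SE 0.108) and 1.16 (SE 0.265). Around Sfrp4, 2 Wnt and Notch genes rose and 3 fell of 7, with Wnt7a down from 6.51 ± 0.598 to 0.666 ± 0.412 CPM. Wnt7a was low in ATG5KO too, at 0.459 CPM. Around Sytl4, 4 exocytosis genes rose, 1 fell and 6 did not pass of 11 against WT, while against ATG5KO 4 rose and 5 fell. Exoc3, a subunit of the exocyst, went from 55.8 ± 3.93 to 83.9 ± 8.43 CPM.

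Of the listed metabolism enzymes outside the 18, 13 of 16 rose and 1 fell against WT. Extracellular glycoproteins and glycan enzymes rose in 12 of 16 and fell in 2 against WT, but against ATG5KO 7 rose and 8 fell. Cell surface receptors and G protein regulators rose in 13 of 15 with none lower. Developmental transcription regulators rose in 15 of 21 and fell in 3. Cell adhesion molecules went the other way, with 5 higher and 13 lower of 20. Of the TGF-beta genes 3 rose and 2 fell of 9 against WT, and 2 rose and 6 fell against ATG5KO. Of the ATF4 and stress genes 10 rose and 2 fell of 12 against WT, and 9 rose and 1 fell against ATG5KO. Against ATG5KO the metabolism enzymes counted 12 higher and 4 lower, the surface receptors 12 and 2, the transcription regulators 11 and 5, the adhesion molecules 6 and 9, the guidance genes 6 and 7 and the Wnt and Notch genes 1 and 3.

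**Figure D5:**
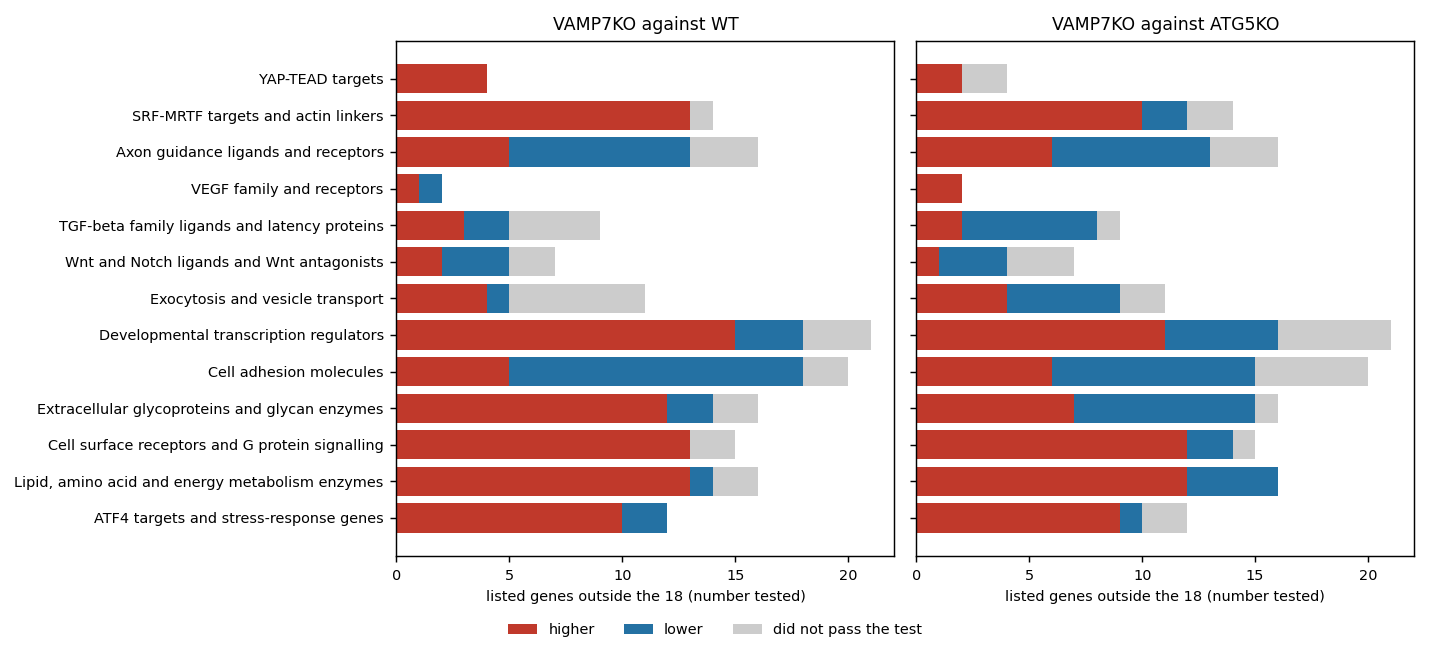
Number of listed genes outside the 18 that were higher (red), lower (blue) or did not pass (grey) at an adjusted p of 0.05, for VAMP7KO against WT (left) and against ATG5KO (right), in each of 13 lists. Only genes that could be named are counted. SRF and MRTF targets and actin linkers are higher in 13 of 14 against WT, and cell adhesion molecules are lower in 13 of 20.

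Markers of other cell types were checked as far as they could be named. Like the listed genes, they could be named only because the study had listed them as changed. A high share of calls was thus built in, and its direction is not independent evidence. Of all genes tested, 10.5% were higher and 12.3% lower against WT. Against ATG5KO 21.3% were higher and 23.6% lower, and neither is a like background. Of 16 fibroblast and mesenchymal markers 9 could be named, and their summed level was 564.7 to 1590.0 CPM in WT, 1087 to 3231 in VAMP7KO and 2266 to 4113 in ATG5KO. The VAMP7KO range overlapped both others. Most of this sum was Col1a1 and Col3a1, with WT means of 883.9 and 120.1 CPM. Of the 8 markers tested, 6 rose and none fell against WT, while against ATG5KO 4 rose and 3 fell. Fap was not tested. It averaged 0.456 ± 0.480 CPM in WT and was listed at 0 in all VAMP7KO and ATG5KO libraries. Of 15 epithelial markers 2 could be named (Krt8 and Cdh16), and both fell against WT. Their summed level was 687.1 to 853.5 CPM in WT, 439.2 to 557.7 in VAMP7KO and 564.8 to 791.9 in ATG5KO, nearly all of it Krt8. Cdh16 averaged only 1.21 ± 0.639 CPM in WT and 0.323 ± 0.161 in VAMP7KO. Its WT replicate 2 (0.361 CPM) lay below VAMP7KO replicate 2 (0.486 CPM). Only Krt8 was called lower in VAMP7KO than in ATG5KO. Of 10 endothelial and leukocyte markers 3 could be named. Their sum was 3.30 to 14.5 CPM in WT, 0.526 to 1.02 in VAMP7KO and 0.384 to 0.806 in ATG5KO. Ptprc, a marker of all leukocytes, carried most of this sum in WT and was at 0 in all 4 VAMP7KO libraries. It was at or under 3 counts in all 4 ATG5KO libraries, so it was low in both knockouts. The endothelial Cdh5 was lower in VAMP7KO too, at or under 3 counts in all 4 libraries, from 0.544 ± 0.093 CPM in WT. The T cell marker Cd3e rose, from 0.318 ± 0.186 CPM in WT to 0.725 ± 0.220 in VAMP7KO (log2 1.29, SE 0.342, adjusted p = 0.0224 in edgeR). These levels are near the floor, which 1 ATG5KO library reached. The genotypes overlapped, with Cd3e at 0.538 CPM in WT replicate 1 and 0.456 in VAMP7KO replicate 3. The part of these markers in the levels of the 18 was not tested.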

How the data were processed

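Stranded mRNA-seq was run on 12 libraries of NRK cells, 4 for each of WT, VAMP7KO and ATG5KO. The authors trimmed reads (cutadapt), discarded rRNA reads (bowtie), aligned to mRatBN7.2 (STAR) and counted reads per Ensembl gene (htseq-count). The deposited values are these raw read counts, for 20842 genes. Groups and replicate numbers came from the labels. Columns were read by their place, since 1 tab is missing in the header. P-values measure the spread between libraries, called independent replicates by the study, of 1 line per genotype.

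The members and the gene lists were chosen with earlier results of these data known. CPM used column totals. The floor of 3 counts covers counting error only, because reads carry no molecular identifiers and may be copies of 1 molecule. Fold changes and p-values came from edgeR 4.0.16 (R 4.3.3, limma 3.58.1, TMM, filterByExpr, glmQLFit, glmQLFTest) for 13141 genes, with Benjamini-Hochberg adjustment over all of them and a threshold of 0.05. Standard errors were derived from these as the absolute log2 fold change divided by the square root of the test's F statistic, and are approximate. VAMP7KO was compared with WT and ATG5KO with the replicate number as a block. Libraries of equal number deviated together (r of 0.634 to 0.754), but so did those of the same set with other numbers (0.595 to 0.75), so the data show a pairing by set and not by number. Sets were compared in a model with 1 mean for each genotype and set, so the spread there is that between libraries of the same set. The batch that the study adjusted for is not given in the sources used here. TMM factors ran from 0.966 to 1.06.

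Named genes were the members, their neighbours with an identifier, Vamp7, cell type markers, the named genes just outside the margin and, of each list, those called highest and lowest against WT, of which a part is printed, and 1 of the 14 lists is counted in the totals but not reported here. Symbols came from identity columns of the study's supplementary data, for 1976 genes, and the authors' fold changes and p-values there were not used. RefSeq tables of GRCr8 gave neighbours for 16 members and promoters for 14, taking the first listed start. On simulated counts, the VAMP7KO against WT model recovered 100 of 100 genes changed by a log2 of 1 among 13008, with 21 false calls, and the interaction model 88 of 100 among 13006. Apart from the changed genes, the simulated genotypes shared the same profile within a set, and changed genes were drawn only above a limit on mean count. The recovery of the first model therefore does not cover set by genotype differences, and neither recovery covers genes of few counts. Alternatives were other library scales, limits and filters, DESeq2 1.42.0, the block, and each library left out in turn. Python 3.11.15 was used with pandas 2.3.3, matplotlib 3.10.9, numpy 2.4.6 and scipy 1.17.1.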

Additional observations from a re-analysis of the deposited data

Results flagged for a closer look

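In VAMP7KO, Sfrp4 replicate 2 lay apart from the other 3 libraries at 101.4 CPM, the only such case in 54 groups of 4 libraries, where chance gives about 1 in 20. The remaining results stand here because the same contrast differed between groups of libraries by the interaction in edgeR's quasi-likelihood test. The log2 difference of replicates 3 and 4 from 1 and 2 in VAMP7KO, less that in WT and ATG5KO, was -3.07 for Acsm2, -2.60 for Hdac9, -0.66 for Cstf2, -0.60 for Ccn2, -0.45 for Sfrp4 and 0.40 for Sema3a. For Sfrp4 and Sema3a the VAMP7KO difference lay between those of WT and ATG5KO. The log2 ratio of ATG5KO to WT differed between the same sets by -3.17 for Fbln7, 2.13 for Acsm2, 2.02 for Sfrp4, -1.17 for Eepd1, -1.08 for Sema3a, 0.94 for Cstf2 and -0.88 for Klhl13. Acsm2, Cstf2, Sfrp4 and Sema3a stand in both groups. The cause of these differences was not tested.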

How the results depend on the processing

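The 18 genes became 47 with a looser margin, 131 with replicates 1 and 2 only (14 shared) and 111 with replicates 3 and 4 only (15 shared), where fewer libraries have to be exceeded. Leaving out each library in turn gave 17 to 23 genes. There were 27 genes with TMM and 24 with DESeq2 size factors, 24 with a limit of 0.5 CPM and 17 with one of 2 CPM, 12 with a margin of 2, 14 with a band of 0.67 to 1.5 and 24 with an offset of 0.5 CPM. Members called between the sets numbered 7 to 11 in VAMP7KO, 7 to 10 in WT and ATG5KO, 5 to 6 in the interaction and 6 to 8 in the ATG5KO to WT ratio as each library was left out, and the value of 7 in VAMP7KO came without its replicate 4. With the replicate block the interaction called the same 6. With no replicate block the listed genes called against WT fell from 143 to 94 and the median log2 fold change of the members stayed 2.19. Leaving out a library gave 121 to 150 listed genes against WT and 138 to 152 against ATG5KO. No interaction changed sign in any fit run. Members near 3 counts, Rgs1, Fbln7, Abca1 and LOC108348233, have folds limited by depth.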
